A study of Mus musculus with 12 samples.

Results

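The genes described here are 10 mouse genes that p53 is known to switch on and whose products act in cell death: Pmaip1, Bbc3, Fas, Tnfrsf10b, Phlda3, Gdf15, Perp, Aen, Trp53inp1 and Apaf1. They were picked by symbol out of 56980 gene IDs in the count table, and 9 of the 10 had enough counts to be tested. The RNA came from NIH/3T3, an immortal fibroblast line that grew out of mouse embryos, labelled wild type and here exposed to drugs for 8 h. Cells received 200 nM carfilzomib (CFZ), 5 µM doxorubicin (DOX), both drugs at those doses (CFZ-DOX), or the vehicle alone (DMSO), with 3 libraries of polyadenylated RNA in each group. Carfilzomib blocks the proteasome irreversibly, and doxorubicin, a DNA-binding anthracycline, traps topoisomerase II on broken DNA. The labels number the libraries 1 to 3 within a group but do not say that these were separate cultures, so the p-values measure only the spread between libraries, which may be technical.

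The transcription factor p53 is kept scarce by MDM2, which marks it for the proteasome, and it accumulates when DNA is damaged. Its death targets act at several points. The BH3-only proteins NOXA (Pmaip1) and PUMA (Bbc3) neutralise survival proteins of the BCL2 family at mitochondria, the receptors FAS and TRAIL-R (Tnfrsf10b) start the caspase cascade from the plasma membrane, and APAF1 builds the apoptosome on cytochrome c. PHLDA3 competes with AKT for membrane lipids, AEN is a nuclease, TP53INP1 works with p53 and in autophagy, PERP sits in the plasma membrane and desmosomes, and GDF15 is a secreted stress cytokine.

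Against DMSO, carfilzomib raised 7 of the 9 tested genes, whereas doxorubicin and the combination each raised 5 and lowered 2. Those counts are for TMM scaling. When libraries were scaled on ribosomal protein genes, they became 6 raised with CFZ and 4 raised and 4 lowered with DOX. With CFZ-DOX, 2 were then raised and 5 lowered. Over all 16648 genes tested, that scaling called 1377 higher and 2365 lower with CFZ. The numbers were 2236 and 9065 with DOX, and 1858 and 11407 with CFZ-DOX. The called genes were those with a Benjamini-Hochberg adjusted p under 0.05 in edgeR's quasi-likelihood test over all 16648 genes tested. Pmaip1, Fas, Tnfrsf10b, Gdf15 and Trp53inp1 rose in all 3 drug groups. Phlda3 and Bbc3 fell with doxorubicin and with the combination, and Phlda3 rose with carfilzomib. No tested gene fell with carfilzomib, and none did at an unadjusted p under 0.05 (0), in DESeq2 (0) or in limma-voom (0). Across all genes tested, TMM scaling called 14.4% higher and 14.4% lower with carfilzomib. The shares were 36.1% and 31.3% with doxorubicin, and 39.3% and 35.7% with the combination. The libraries did not overlap those of DMSO in 9 of the 9 genes with CFZ, in 7 with DOX and in 7 with CFZ-DOX. Over all genes this held, above and below DMSO, for 27.8% and 28.1% with CFZ, 38.7% and 33.8% with DOX, and 39.1% and 37.2% with CFZ-DOX. The median log2 fold change of the 9 genes was 1.35 for CFZ, 0.91 for DOX and 0.95 for CFZ-DOX, beside -0.01, 0.14 and 0.09 over all genes tested. These 3 comparisons use the same DMSO libraries.

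**Figure D1:**
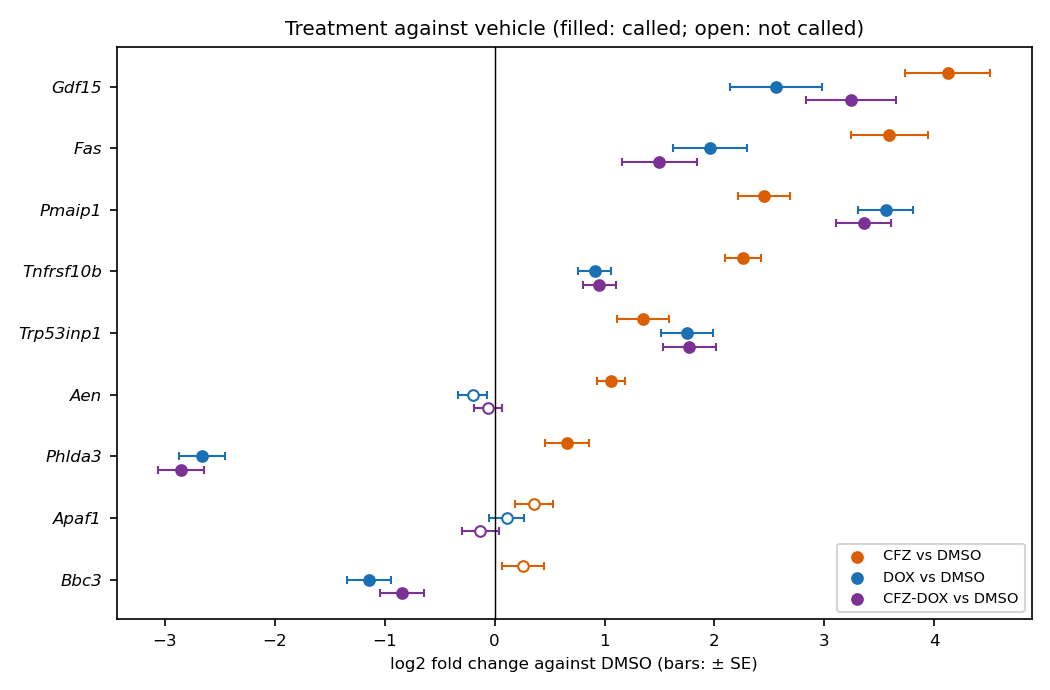
Log2 fold changes against DMSO of the 9 tested genes in CFZ, DOX and CFZ-DOX (points, with bars of 1 standard error), filled where the adjusted p was under 0.05 and open where it was not. The points of Fas, Tnfrsf10b, Aen and Phlda3 lie far higher for CFZ than for the other two groups, and Pmaip1 lies highest for DOX.

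Library totals were 30460507 to 39685017 counts in CFZ, 32351317 to 42033993 in DOX, 28278879 to 38327183 in CFZ-DOX and 31024213 to 40134000 in DMSO. Levels are in CPM, counts scaled to the library total and by edgeR's TMM factors, and means are given ± SD over 3 libraries. DOX replicate 3 and CFZ-DOX replicate 3 stood apart from the other 2 libraries of their groups on the third principal component, at -60.6 beside 6.66 and -7.14 in DOX and at -24.6 beside 43 and 32.6 in CFZ-DOX. CFZ-DOX replicate 3 had the highest value of its group in 9 of the 9 genes, and DOX replicate 3 in 7 of 9. The same count was not made over all genes tested, so it cannot be called particular to these genes. Without both libraries each gene called against DMSO above was called in the same direction, and Apaf1 was called as well. The 76 ribosomal protein genes used as a scaling check took 3.91% to 4.4% of counts in CFZ, 6.71% to 7.27% in DOX and 9.99% to 10.6% in CFZ-DOX, against 3.98% to 4.32% in DMSO. Scaling on them shifted the all-gene median of the log2 fold change against DMSO by -0.1 in CFZ, -0.87 in DOX and -1.64 in CFZ-DOX, and upper-quartile scaling moved it by -0.05, 0.38 and 0.5. In bulk RNA, fewer cells that express a gene and less RNA of it per cell cannot be told apart.

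All 9 fibroblast markers were expressed above the filter, with a summed level of 17900 to 27600 CPM in CFZ, 28500 to 65400 CPM in DOX and 41900 to 103000 CPM in CFZ-DOX, against 24600 to 31700 CPM in DMSO. With TMM scaling the markers went both ways: with CFZ 3 of the 9 fell, with DOX 3 rose and 2 fell, and with CFZ-DOX 6 rose and 2 fell. Ribosomal protein scaling called 0 higher in each drug group, and 5 lower in CFZ, 3 in DOX and 4 in CFZ-DOX. The markers that fell in DOX and CFZ-DOX with TMM were the growth factor receptors Pdgfra (log2 -2.2 and -2.58) and Pdgfrb (log2 -1.32 and -1.87). Their falls were called under all 5 scalings tried. The collagen gene Col1a1 averaged 4690 CPM in CFZ, 12200 in DOX and 18100 in CFZ-DOX, against 7500 in DMSO. On ribosomal protein scaling its log2 values were -0.23 in DOX (adjusted p = 0.302) and -0.43 in CFZ-DOX (adjusted p = 0.047). The 5 epithelial markers summed to at most 3.58 CPM and the 4 endothelial markers to at most 3.49 CPM in any library. Cdh1, the 1 epithelial marker tested, fell in all 3 drug groups. The endothelial marker Pecam1 rose with DOX (log2 3.76, adjusted p = 1.26e-06) and CFZ-DOX (log2 3.8, adjusted p = 7.39e-07) under all 5 scalings. It averaged 1.8 CPM in DOX and 1.85 in CFZ-DOX, against 0.131 in DMSO. Cdh5 did not pass in either group (adjusted p = 0.208 and 0.381), and Kdr and Tie1 had at most 2 and 4 counts. The 4 leukocyte markers summed to 1.51 to 1.69 CPM in CFZ, 3.11 to 4.71 CPM in DOX and 11.1 to 14.4 CPM in CFZ-DOX, against 1.19 to 1.42 CPM in DMSO. Cd68, a lysosomal protein abundant in macrophages, made up most of that sum, at 1.37 CPM in CFZ, 3.48 in DOX and 11.5 in CFZ-DOX, against 1.16 in DMSO, and rose with DOX (log2 1.58, adjusted p = 4.49e-05) and CFZ-DOX (log2 3.3, adjusted p = 3.73e-08). Csf1r, the receptor of macrophage growth factor CSF1, also rose with DOX (log2 1.72, adjusted p = 0.00493) and CFZ-DOX (log2 2.34, adjusted p = 0.000337), at 0.524 CPM in DOX and 0.81 CPM in CFZ-DOX, against 0.161 CPM in DMSO. On ribosomal protein scaling its log2 values of 0.85 in DOX (adjusted p = 0.19) and 0.73 in CFZ-DOX (adjusted p = 0.234) did not pass. Ptprc, the pan-leukocyte marker CD45, had at most 8 counts in a library and the macrophage marker Adgre1 at most 2. The part of these shifts and of the ribosomal protein share in the results below was not tested.

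Promoter windows of 300 bases, 250 before to 50 after a transcription start, were searched in 6 of the 10 genes. The starts were those of RefSeq (GRCm38.p6, an older build than that of the counts). The remaining genes were not searched, which does not show that RefSeq holds no window for them. Both strands were searched for the p53 half-site of 10 letters, for the p53 full site of 20 letters made of a pair of half-sites with no spacer and up to 3 mismatches, and for TGATGNAA, TGACGT and TGANTCA, the sites named for C/EBP-ATF, CRE and AP-1. A full site had to keep the C and the G of each half-site, and it holds any half-site found in it. The 4 windows below set the genes with a full-site match, Bbc3 and Aen, beside Fas and Phlda3. Among the genes searched that had enough counts for a precise fold change, Fas moved most with CFZ and Phlda3 with DOX. Capitals mark every match. They are Bbc3 (chr7:16309333-16309632, plus strand), Aen (chr7:78895808-78896107, plus strand), Fas (chr19:34290409-34290708, plus strand) and Phlda3 (chr1:135765835-135766134, plus strand).
Bbc3: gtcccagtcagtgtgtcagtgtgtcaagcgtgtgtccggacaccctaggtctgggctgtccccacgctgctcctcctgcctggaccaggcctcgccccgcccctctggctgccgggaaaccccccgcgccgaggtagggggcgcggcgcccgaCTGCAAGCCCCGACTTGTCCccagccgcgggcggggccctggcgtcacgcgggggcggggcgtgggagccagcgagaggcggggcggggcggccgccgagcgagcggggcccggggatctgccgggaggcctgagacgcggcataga
Aen: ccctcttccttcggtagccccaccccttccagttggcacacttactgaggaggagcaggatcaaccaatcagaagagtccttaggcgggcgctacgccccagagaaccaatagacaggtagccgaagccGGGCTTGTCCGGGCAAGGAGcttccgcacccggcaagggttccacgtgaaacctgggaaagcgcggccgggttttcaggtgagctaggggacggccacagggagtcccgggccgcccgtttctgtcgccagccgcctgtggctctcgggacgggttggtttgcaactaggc
Fas: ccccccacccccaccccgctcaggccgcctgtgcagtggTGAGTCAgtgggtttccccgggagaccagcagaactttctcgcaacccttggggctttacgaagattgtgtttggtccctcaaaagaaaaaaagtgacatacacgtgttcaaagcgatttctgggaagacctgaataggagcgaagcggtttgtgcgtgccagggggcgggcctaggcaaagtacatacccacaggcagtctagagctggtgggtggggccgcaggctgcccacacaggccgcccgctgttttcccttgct
Phlda3: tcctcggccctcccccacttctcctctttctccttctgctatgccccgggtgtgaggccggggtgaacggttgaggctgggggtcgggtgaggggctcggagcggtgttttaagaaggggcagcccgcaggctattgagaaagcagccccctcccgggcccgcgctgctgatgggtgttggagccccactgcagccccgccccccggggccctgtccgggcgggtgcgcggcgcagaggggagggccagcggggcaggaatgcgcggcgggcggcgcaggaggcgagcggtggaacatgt
The Bbc3 match CTGCAAGCCCCGACTTGTCC starts 97 bases before the transcription start of the window shown and has 3 mismatches. The windows at the other RefSeq starts of Bbc3 held no match. The Aen match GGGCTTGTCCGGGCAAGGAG starts 121 bases before this start, or at base 11 after the other RefSeq start of the gene, also has 3 mismatches, and opens with the half-site GGGCTTGTCC. Fas had TGAGTCA 211 bases before its start, and the Phlda3, Gdf15 and Apaf1 windows held none of these letters. Of 32851 RefSeq windows of the same length, 1.38% held the full site, 8.36% the half-site, 3.97% TGATGNAA, 7.51% TGACGT and 7.81% TGANTCA. The genes with the full-site match differed in response: Bbc3 fell with DOX and its CFZ value did not pass, while Aen rose with CFZ and its DOX value did not pass. A match of letters is a description and not a measured binding site.

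Pmaip1 encodes NOXA, a BH3-only protein that binds MCL1 above all. The gene (ENSMUSG00000024521) lies on chromosome 18 at 66591604 to 66598636, plus strand, in GRCm39, the build of all gene coordinates below. Its libraries had 21.2, 23.3 and 29.5 CPM in CFZ, 46.1, 44.2 and 69.6 CPM in DOX and 43.1, 34.3 and 62.1 CPM in CFZ-DOX, against 4.86, 3.92 and 4.81 CPM in DMSO. Each drug library was above each DMSO library, and the DOX libraries were all above the CFZ libraries. Relative to DMSO, Pmaip1 rose 5.45-fold with CFZ (log2 2.45 ± 0.24 SE, adjusted p = 7.56e-06). The rise was 11.8-fold with DOX (log2 3.56 ± 0.25, adjusted p = 5.49e-08) and 10.3-fold with CFZ-DOX (log2 3.36 ± 0.25, adjusted p = 4.17e-08). Of the 9 genes it had the largest rise in DOX and in CFZ-DOX.

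Bbc3 encodes PUMA, the BH3-only protein that binds every survival member of the BCL2 family. The gene (ENSMUSG00000002083) lies on chromosome 7 at 16042318 to 16052130, plus strand. It had 15.8, 17.6 and 18.1 CPM in CFZ, 5.57, 5.62 and 8.35 CPM in DOX and 6.93, 7.08 and 10 CPM in CFZ-DOX, against 13.8, 13.7 and 15.6 CPM in DMSO. The DOX and CFZ-DOX libraries all lay below every DMSO library, so the pair of BH3-only genes moved in opposite directions under doxorubicin. Bbc3 was 2.2-fold lower with DOX (log2 -1.14 ± 0.2, adjusted p = 0.000154) and 1.79-fold lower with CFZ-DOX (log2 -0.84 ± 0.2, adjusted p = 0.0013). The CFZ libraries were all above the DMSO libraries, but the difference did not pass the test (log2 0.26 ± 0.19, adjusted p = 0.353). A fit to the CFZ and DMSO libraries alone called it (log2 0.25, adjusted p = 0.0439). Upper-quartile scaling left the CFZ-DOX value at -0.35 (adjusted p = 0.101).

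The survival proteins that NOXA and PUMA bind, with the pore formers BAX and BAK, were read from 7 genes, of which 6 were tested. With CFZ, 1 rose and 2 fell. With DOX 1 rose and 4 fell, and with CFZ-DOX 2 rose and 4 fell. Median log2 fold changes were 0.12 for CFZ, -0.99 for DOX and -1.31 for CFZ-DOX. On ribosomal protein scaling 1 rose and 2 fell with CFZ, 5 fell with DOX and 6 fell with CFZ-DOX. Mcl1, the main partner of NOXA, averaged 166 ± 12.8 CPM in CFZ, 21.5 ± 9.52 in DOX and 21.5 ± 5.86 in CFZ-DOX, against 151 ± 23.8 in DMSO. It fell with DOX (log2 -2.81 ± 0.27, adjusted p = 6.6e-07) and CFZ-DOX (log2 -2.82 ± 0.27, adjusted p = 4.04e-07), the groups in which Pmaip1 was highest, and its CFZ value did not pass (log2 0.13, adjusted p = 0.739). Bcl2l1, which encodes BCL-XL, fell with all 3 treatments, with 52.6 CPM in CFZ, 29.3 in DOX and 19.4 in CFZ-DOX, against 86.3 in DMSO, and so did Bcl2, with 8.79, 6.97 and 4.84 CPM against 19.9 in DMSO. These falls were called under all 5 scalings tried. Bax, the pore-forming protein that these survivors restrain and itself a p53 target, averaged 101 ± 9.26 CPM in CFZ, 104 ± 16.8 in DOX and 124 ± 20 in CFZ-DOX, against 57.7 ± 6.26 in DMSO. It rose with all 3 treatments (log2 0.81, 0.85 and 1.1, adjusted p = 0.00153, 0.000292 and 1.95e-05), but on ribosomal protein scaling its values were -0.05 in DOX (adjusted p = 0.738) and -0.55 in CFZ-DOX (adjusted p = 0.000562).

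**Figure D2:**
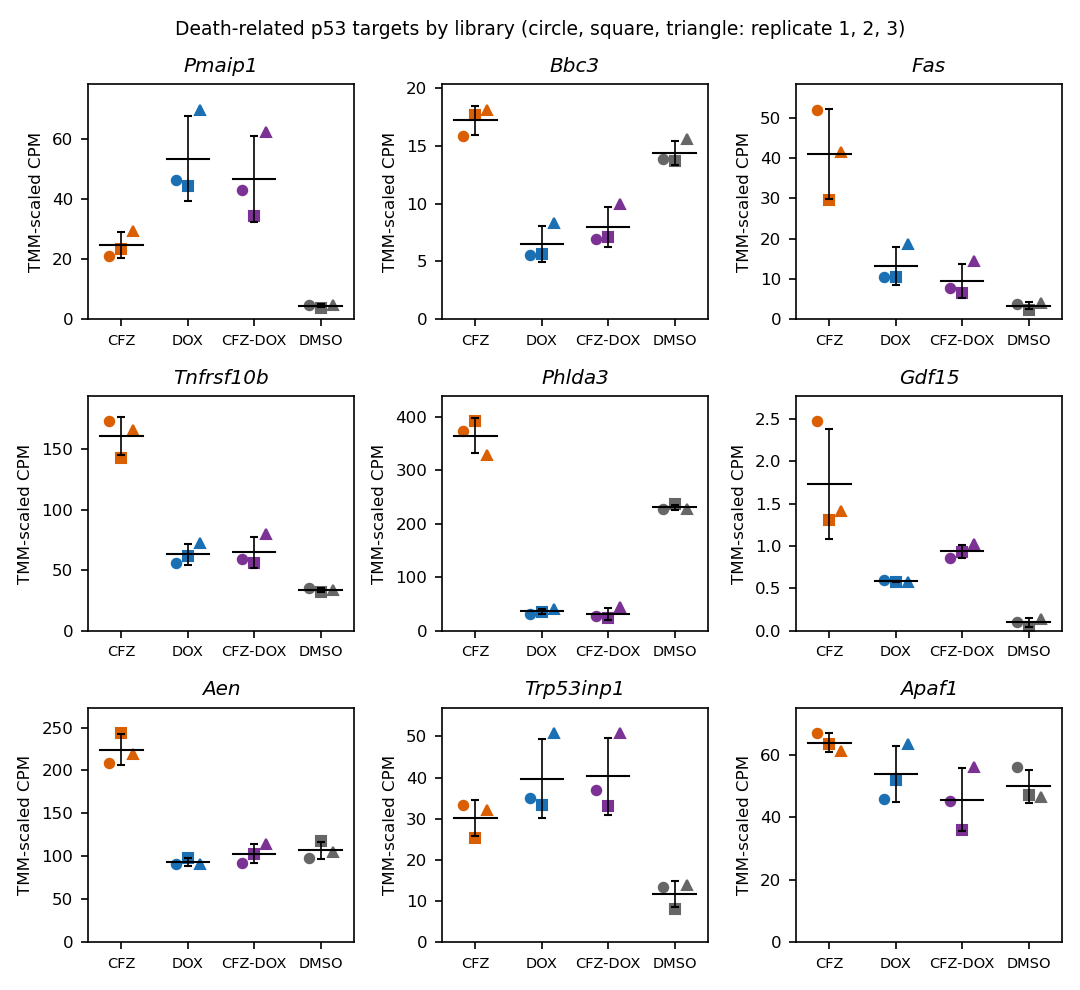
Normalised expression (CPM, TMM-scaled) of the 9 tested genes in each of the 12 libraries, 1 panel per gene, with bars for the mean and SD of each group of 3 and marker shapes for the replicate number. Phlda3 and Bbc3 are lower in DOX and CFZ-DOX than in DMSO, Pmaip1 and Trp53inp1 are higher in all 3 drug groups, and Aen is higher in CFZ alone.

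Fas encodes the receptor of FAS ligand, whose death domain recruits FADD and caspase 8. The gene (ENSMUSG00000024778) lies on chromosome 19 at 34268066 to 34305172, plus strand. It had 52, 29.5 and 41.5 CPM in CFZ, 10.5, 10.4 and 18.7 CPM in DOX and 7.9, 6.55 and 14.4 CPM in CFZ-DOX, against 3.85, 2.34 and 4.01 CPM in DMSO. Every drug library was above every DMSO library, and every CFZ library was above the DOX and CFZ-DOX libraries. Fas rose 12.1-fold with CFZ (log2 3.59 ± 0.35, adjusted p = 6.84e-06) and 3.9-fold with DOX (log2 1.96 ± 0.34, adjusted p = 0.000145). With CFZ-DOX it rose 2.84-fold (log2 1.5 ± 0.34, adjusted p = 0.000934), a value that became -0.1 (adjusted p = 0.851) on ribosomal protein scaling.

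Tnfrsf10b encodes the only mouse TRAIL receptor with a death domain. The gene (ENSMUSG00000022074) lies on chromosome 14 at 70004921 to 70021860, plus strand. It had 173, 143 and 166 CPM in CFZ, 55.8, 61.5 and 72.7 CPM in DOX and 59.1, 56.1 and 79.6 CPM in CFZ-DOX, against 35.1, 32 and 33.9 CPM in DMSO. The pattern was that of Fas, with all drug libraries above DMSO and the CFZ libraries well above the rest. Tnfrsf10b rose 4.78-fold with CFZ (log2 2.26 ± 0.16, adjusted p = 3.9e-07). It rose 1.88-fold with DOX (log2 0.91 ± 0.15, adjusted p = 0.000116) and 1.93-fold with CFZ-DOX (log2 0.95 ± 0.15, adjusted p = 5.73e-05). On ribosomal protein scaling the DOX value was 0.07 (adjusted p = 0.824) and the CFZ-DOX value turned to -0.67 (adjusted p = 0.0269).

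The ligands of both receptors were close to undetected, with at most 5 counts of Fasl and at most 3 of Tnfsf10 in any library. Of the 16 other genes of the death receptor pathway, 14 were tested. With CFZ 5 rose and 1 fell, with DOX 2 rose and 6 fell, and with CFZ-DOX 3 rose and 8 fell, at median log2 fold changes of 0.38, -0.19 and -0.74. On ribosomal protein scaling 1 rose with CFZ, 9 fell with DOX and 13 fell with CFZ-DOX. Fadd, the adaptor that FAS and TRAIL-R share, averaged 9.26 ± 0.954 CPM in CFZ, 5.64 ± 1.76 in DOX and 2.2 ± 0.545 in CFZ-DOX, against 14.3 ± 0.423 in DMSO, and fell with all 3 (log2 -0.63, -1.34 and -2.7, adjusted p = 0.0435, 0.000111 and 2.21e-07), although the CFZ call held under 2 of the 5 scalings. Casp8, the initiator caspase of this route, rose with CFZ (log2 0.39, adjusted p = 0.0489, called under 1 of the 5 scalings) and DOX (log2 0.45, adjusted p = 0.00984, turning to -0.4 on ribosomal protein scaling), and its CFZ-DOX value of 0.26 did not pass (adjusted p = 0.103) and ran from -1.36 to 0.76 across the scalings. Tnfrsf23, a TRAIL receptor without a death domain, rose in all 3 drug groups, with 56.7 CPM in CFZ, 47.5 in DOX and 51.4 in CFZ-DOX, against 26 in DMSO, although on ribosomal protein scaling its log2 values were 0 in DOX (adjusted p = 0.98) and -0.69 in CFZ-DOX (adjusted p = 0.000799). Traf2, an adaptor of TNF receptor signalling, averaged 45.9 CPM in CFZ, 5.44 in DOX and 10.5 in CFZ-DOX, against 27.4 in DMSO, and Birc3, which encodes the ubiquitin ligase cIAP2, averaged 16.4, 2.17 and 3.61 CPM against 7.08 in DMSO.

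Phlda3 encodes a small pleckstrin-homology protein that keeps AKT from the membrane. The gene (ENSMUSG00000041801) lies on chromosome 1 at 135693857 to 135696874, plus strand. It had 374, 392 and 328 CPM in CFZ, 32.2, 36 and 41.7 CPM in DOX and 27.5, 23.4 and 45 CPM in CFZ-DOX, against 228, 237 and 228 CPM in DMSO. The DOX and CFZ-DOX libraries were all far below DMSO and the CFZ libraries all above it. Phlda3 fell to 36.6 ± 4.79 CPM with DOX, 6.3-fold lower than DMSO (log2 -2.66 ± 0.21, adjusted p = 1.3e-07). With CFZ-DOX it fell to 32 ± 11.5 CPM, 7.21-fold lower (log2 -2.85 ± 0.21, adjusted p = 3.97e-08). The rise with CFZ was 1.58-fold (log2 0.66 ± 0.2, adjusted p = 0.0209). That call was lost without CFZ replicate 1 (adjusted p = 0.057) or 2 (0.0701), without DMSO replicate 1 (0.065), 2 (0.0558) or 3 (0.0661), and with library-size scaling (0.174), although the log2 value stayed between 0.61 and 0.74 when a library was left out.

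Aen encodes an exonuclease of the nucleolus that contributes to DNA breakdown in dying cells. The gene (ENSMUSG00000030609) lies on chromosome 7 at 78545602 to 78560957, plus strand. It had 209, 244 and 219 CPM in CFZ, 91, 98.7 and 91 CPM in DOX and 92.3, 103 and 114 CPM in CFZ-DOX, against 98.1, 118 and 105 CPM in DMSO. All CFZ libraries were above all others, while the DOX and CFZ-DOX libraries overlapped those of DMSO. Aen rose 2.09-fold with CFZ (log2 1.06 ± 0.13, adjusted p = 3.61e-05). Its values with DOX (log2 -0.2 ± 0.13, adjusted p = 0.182) and CFZ-DOX (log2 -0.06 ± 0.13, adjusted p = 0.689) did not pass. Under other scalings Aen was called in either direction: lower on ribosomal protein scaling in DOX (log2 -1.06, adjusted p = 0.000191) and CFZ-DOX (log2 -1.68, adjusted p = 1.88e-06), and higher in CFZ-DOX with upper quartile (log2 0.44, adjusted p = 0.00884).

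Trp53inp1 encodes a nuclear protein that promotes phosphorylation of p53 and, in the cytoplasm, autophagy. The gene (ENSMUSG00000028211) lies on chromosome 4 at 11156431 to 11174379, plus strand. It had 33.3, 25.3 and 32.1 CPM in CFZ, 35, 33.4 and 50.9 CPM in DOX and 37, 33 and 50.9 CPM in CFZ-DOX, against 13.4, 8.21 and 13.9 CPM in DMSO. All drug libraries were above all DMSO libraries, and those of the 3 drug groups lay close together. Trp53inp1 rose 2.55-fold with CFZ (log2 1.35 ± 0.24, adjusted p = 0.000698) and 3.36-fold with DOX (log2 1.75 ± 0.24, adjusted p = 1.85e-05). The rise with CFZ-DOX was 3.41-fold (log2 1.77 ± 0.24, adjusted p = 1.06e-05), and 0.15 on the log2 scale with ribosomal protein scaling (adjusted p = 0.705).

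Gdf15 was scarce. The gene (ENSMUSG00000038508) lies on chromosome 8 at 71082043 to 71085106, minus strand. Its libraries had 83, 54 and 45 counts in CFZ, 22, 19 and 22 counts in DOX and 24, 23 and 30 counts in CFZ-DOX, against 4, 2 and 5 counts in DMSO. The groups did not overlap with DMSO, where the counts were too few for a precise denominator. In CPM the means were 1.73 ± 0.641 in CFZ, 0.585 ± 0.00892 in DOX and 0.937 ± 0.0785 in CFZ-DOX, against 0.0992 ± 0.0493 in DMSO. The fitted rises were 17.3-fold with CFZ (log2 4.12 ± 0.39, adjusted p = 5.52e-06), 5.9-fold with DOX (log2 2.56 ± 0.42, adjusted p = 0.000107) and 9.43-fold with CFZ-DOX (log2 3.24 ± 0.41, adjusted p = 6.55e-06). Perp, at chromosome 10 from 18720768 to 18732821 on the plus strand (ENSMUSG00000019851), had 0 to 3 counts in every library and was not tested.

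Apaf1 encodes the scaffold of the apoptosome, which activates caspase 9. The gene (ENSMUSG00000019979) lies on chromosome 10 at 90825173 to 90918632, minus strand. It had 67.1, 63.6 and 61.1 CPM in CFZ, 46, 51.9 and 63.5 CPM in DOX and 45.1, 36 and 56 CPM in CFZ-DOX, against 56.1, 47.3 and 46.5 CPM in DMSO. The CFZ libraries were above those of DMSO, and the other drug groups overlapped DMSO. With TMM scaling none of its changes against DMSO passed the test, at log2 0.36 ± 0.17 with CFZ (adjusted p = 0.126), 0.11 ± 0.16 with DOX (adjusted p = 0.581) and -0.13 ± 0.17 with CFZ-DOX (adjusted p = 0.493). Without DOX replicate 3 and CFZ-DOX replicate 3 it was called higher with CFZ (log2 0.32, adjusted p = 0.0177) and lower with CFZ-DOX (log2 -0.36, adjusted p = 0.0106), and a fit to the CFZ and DMSO libraries alone called it higher with CFZ (log2 0.35, adjusted p = 0.00568). Upper quartile scaling called Apaf1 higher in DOX (log2 0.48, adjusted p = 0.0113) and CFZ-DOX (log2 0.36, adjusted p = 0.0437), and ribosomal protein scaling called it lower in DOX (log2 -0.73, adjusted p = 0.0259) and CFZ-DOX (log2 -1.76, adjusted p = 4.98e-05). Among the 10 other genes of the apoptosome and the executioner caspases, 2 rose and 4 fell with CFZ, 2 rose and 2 fell with DOX, and 2 rose and 4 fell with CFZ-DOX, at median log2 fold changes of -0.28, -0.05 and -0.35. Scaled on ribosomal protein genes, 1 rose and 5 fell with CFZ, 7 fell with DOX and 10 fell with CFZ-DOX. Cycs, which encodes cytochrome c, averaged 100 ± 7.96 CPM in CFZ, 239 ± 42.3 in DOX and 297 ± 61.7 in CFZ-DOX, against 123 ± 16.8 in DMSO, and rose with DOX (log2 0.96, adjusted p = 0.000334) and CFZ-DOX (log2 1.27, adjusted p = 2.03e-05). Scaled on ribosomal protein genes, these values were 0.07 (adjusted p = 0.651) and -0.39 (adjusted p = 0.0126). Casp9 fell with CFZ-DOX (log2 -0.88, adjusted p = 0.000787), and its CFZ and DOX values of -0.28 and -0.4 did not pass (adjusted p = 0.303 and 0.0734). Upper quartile scaling lost the CFZ-DOX call of Casp9 (log2 -0.38, adjusted p = 0.0691), and ribosomal protein scaling called it lower with DOX (log2 -1.24, adjusted p = 0.000848). Xiap, the caspase inhibitor, fell with all 3 treatments, with 26 CPM in CFZ, 22.4 in DOX and 17.5 in CFZ-DOX, against 44.2 in DMSO, and its antagonist Diablo rose with all 3, with 8.02, 8.04 and 8.42 CPM against 4.4 in DMSO, although on ribosomal protein scaling its log2 values were 0.01 in DOX (adjusted p = 0.972) and -0.7 in CFZ-DOX (adjusted p = 0.0102).

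The combination was next set against each drug alone. Adding doxorubicin to carfilzomib (CFZ-DOX against CFZ) lowered 7 of the 9 genes and raised 1, with 36.9% of all genes tested called lower and 40.4% called higher. The groups did not overlap in 8 of the 9 genes, beside 38.0% of all genes below CFZ without overlap and 39.8% above. The median log2 difference was -1.1 over the 9 genes and 0.09 over all genes tested. Phlda3 was 11.4-fold lower, at 32 ± 11.5 CPM in CFZ-DOX against 365 ± 32.9 CPM in CFZ (log2 -3.51 ± 0.22, adjusted p = 8.6e-09). Fas was 4.26-fold lower, at 9.6 ± 4.17 CPM in CFZ-DOX against 41 ± 11.3 CPM in CFZ (log2 -2.09 ± 0.33, adjusted p = 4.36e-05). Tnfrsf10b, Aen and Bbc3 were 2.47-fold, 2.17-fold and 2.14-fold lower (adjusted p = 2.54e-06, 2.17e-06 and 0.000141). These 5 genes were lower under each of the 5 scalings tried. Of all 16648 genes tested, ribosomal protein scaling called 10860 lower and 2231 higher here, and shifted the median of all genes by -1.54. Upper quartile scaling called 4205 lower and 8618 higher. Gdf15 (log2 -0.88 ± 0.3, adjusted p = 0.0162) and Apaf1 (log2 -0.48 ± 0.17, adjusted p = 0.0154) also fell. The Gdf15 call was lost without CFZ replicate 1 (-0.57, adjusted p = 0.106), and the Apaf1 call without CFZ-DOX replicate 2 (-0.35, adjusted p = 0.0658). Upper quartile scaling lost both, at -0.34 for Gdf15 (adjusted p = 0.324) and 0.05 for Apaf1 (adjusted p = 0.756). A fit to only the libraries compared also lost both (adjusted p = 0.0631 and 0.107), and DESeq2 lost Apaf1 (adjusted p = 0.0515). Pmaip1 alone rose, 1.88-fold (log2 0.91 ± 0.23, adjusted p = 0.00199), and turned to -0.6 (adjusted p = 0.113) on ribosomal protein scaling. The Trp53inp1 value of 0.42 ± 0.23 did not pass (adjusted p = 0.111), and was 0.4 (adjusted p = 0.02) with the replicate block and 0.5 (adjusted p = 0.0314) without DOX replicate 3. Ribosomal protein scaling called it in the other direction (log2 -1.11, adjusted p = 0.00885), and with upper quartile scaling (log2 0.95, adjusted p = 0.000981) and with only the libraries compared (log2 0.57, adjusted p = 0.022) it was called higher.

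Adding carfilzomib to doxorubicin (CFZ-DOX against DOX) gave no call in the 9 genes with TMM scaling, neither upward (0) nor downward (0) in edgeR, and the counts were also 0 at an unadjusted p under 0.05, in DESeq2 and in limma-voom. Ribosomal protein scaling called 6 of the 9 lower, namely Pmaip1, Fas, Tnfrsf10b, Phlda3, Aen and Apaf1. Their log2 values ran from -1.24 for Fas to -0.62 for Aen, where that scaling shifted the median of all genes by -0.77. It called 8778 of all 16648 genes tested lower and 127 higher. With TMM scaling, 10.3% of all genes tested were called higher and 12% lower. Log2 differences lay between -0.46 for Fas and 0.68 for Gdf15, with a median of 0.02 beside 0.03 over all genes. Gdf15 was the gene whose groups did not overlap, at 24, 23 and 30 counts in CFZ-DOX against 22, 19 and 22 in DOX, and its adjusted p was 0.147 (log2 0.68 ± 0.33). Over all genes, 16.1% were higher and 15.5% lower without overlap. Tnfrsf10b averaged 64.9 ± 12.8 CPM in CFZ-DOX against 63.3 ± 8.59 CPM in DOX, and Trp53inp1 averaged 40.3 ± 9.38 CPM in CFZ-DOX against 39.7 ± 9.7 CPM in DOX. Leaving out CFZ-DOX replicate 3 gave 2 lower genes, Fas (log2 -0.87, adjusted p = 0.0482) and Phlda3 (log2 -0.53, adjusted p = 0.0141), and leaving out replicate 3 of both DOX and CFZ-DOX gave 1, Phlda3 (log2 -0.44, adjusted p = 0.0107).

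The effect of carfilzomib in the presence of doxorubicin was then compared with its effect in the absence of doxorubicin, as the interaction term of the model, (CFZ-DOX minus DOX) minus (CFZ minus DMSO) on the log2 scale. It was below 0 and passed the test in 7 of the 9 genes and above 0 in none that passed (0 also at an unadjusted p under 0.05, in DESeq2 and in limma-voom), where 11.2% of all genes tested were called lower and 8.46% higher. The median was -1.33 over the 9 genes and 0.04 over all genes. The values were -4.05 ± 0.47 for Fas (adjusted p = 0.000112), -3.44 ± 0.52 for Gdf15 (0.000639), -2.64 ± 0.33 for Pmaip1 (0.000173), -2.22 ± 0.22 for Tnfrsf10b (3.05e-05), -1.33 ± 0.33 for Trp53inp1 (0.0118), -0.92 ± 0.18 for Aen (0.00326) and -0.86 ± 0.28 for Phlda3 (0.0448). The Phlda3 call was lost in 10 of the 12 fits that left out 1 library, and under 3 of the other scalings. Apaf1 (-0.59 ± 0.23, adjusted p = 0.0887) and Bbc3 (0.04 ± 0.27, adjusted p = 0.94) did not pass. Apaf1 did with the replicate block (-0.6, adjusted p = 0.0447) and with ribosomal protein scaling (-1.28, adjusted p = 0.0203). It also passed without CFZ-DOX replicate 3 (-0.76, adjusted p = 0.013) and without replicate 3 of both DOX and CFZ-DOX (-0.61, adjusted p = 0.00863).

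**Figure D3:**
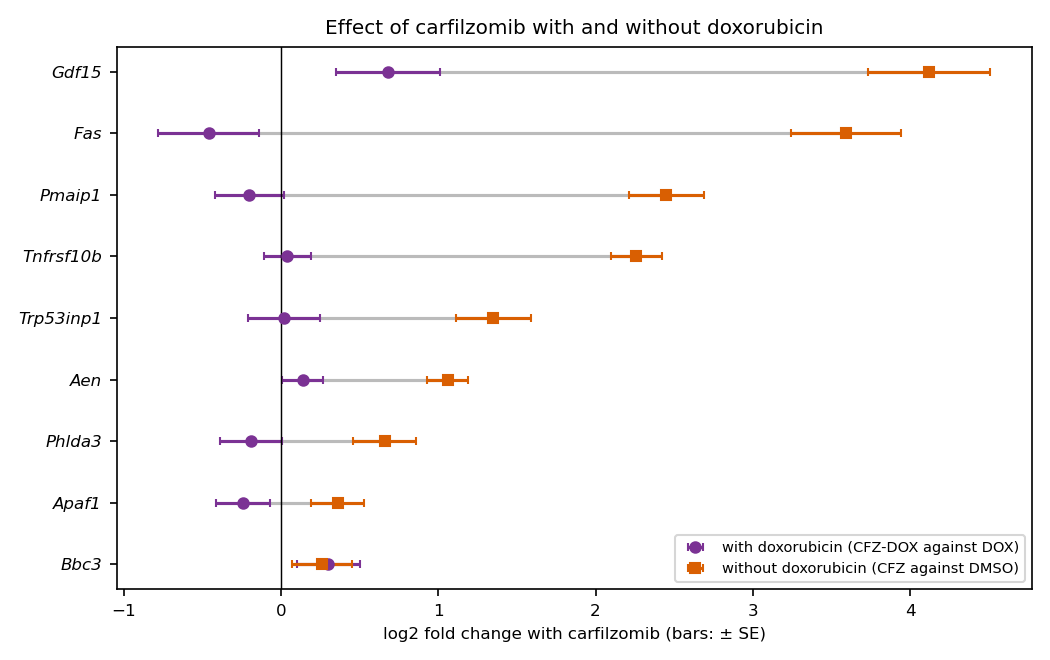
Log2 effect of carfilzomib on each of the 9 tested genes with doxorubicin present (CFZ-DOX against DOX, circles) and with doxorubicin absent (CFZ against DMSO, squares), with bars of 1 standard error. With doxorubicin the circles lie between -0.46 and 0.68, and without it the squares reach 4.12.

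Set as levels, the CFZ-DOX mean of Fas was 9.6 CPM, where the fold changes of the single drugs multiplied together would give 159 CPM. For Pmaip1 the CFZ-DOX mean was 46.5 CPM beside a product of 290 CPM, and for Tnfrsf10b 64.9 CPM beside 302 CPM. In Bbc3 the mean of 8.01 CPM was close to the product of 7.78 CPM. In 8 of the 9 genes the mean of the combination was below the product. In 7 of the 9 it lay within 1 SD of the DOX mean, Aen and Gdf15 being the exceptions. Neither count was made over all genes tested, so neither can be called particular to these genes.

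The direction of several genes depended on the scaling, and so did the balance of all genes. In DOX against DMSO, 6010 genes were called higher and 5213 lower with TMM, 8069 and 3713 with upper quartile, and 2236 and 9065 with ribosomal protein scaling. In CFZ-DOX against DMSO the counts were 6536 and 5942, 8469 and 4121, and 1858 and 11407. Of the 5 scalings (TMM, size factors of the DESeq2 type, library size, upper quartile, ribosomal protein genes) none turned a CFZ call, and 6 genes were called higher with CFZ under all 5, namely Pmaip1, Fas, Tnfrsf10b, Gdf15, Aen and Trp53inp1. With DOX, Pmaip1, Fas, Gdf15 and Trp53inp1 were called higher and Bbc3 and Phlda3 lower under all 5. With CFZ-DOX, Pmaip1 and Gdf15 were called higher and Phlda3 lower under all 5. In the interaction, 6 genes were called below 0 under all 5, the exception being Phlda3. Of all 16648 genes tested, TMM called 1862 below 0 and 1408 above in that term. The counts were 1321 and 2195 with upper quartile, and 5193 and 250 with ribosomal protein scaling.

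**Figure D4:**
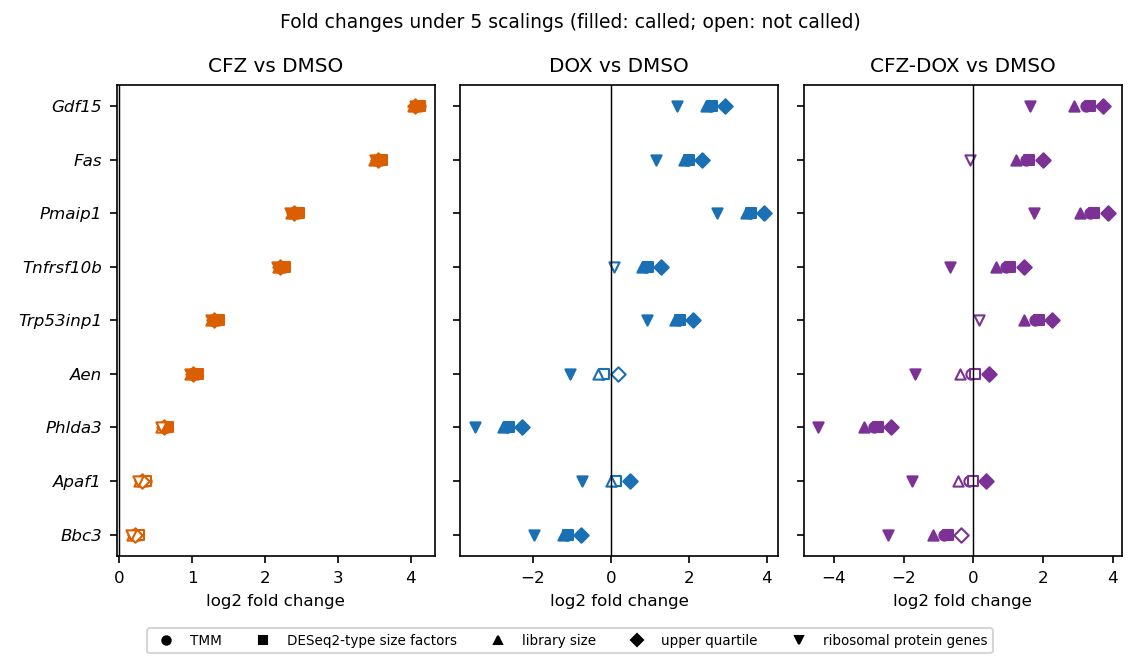
Log2 fold changes against DMSO of the 9 tested genes under 5 scalings of the libraries, with 1 panel each for CFZ, DOX and CFZ-DOX and filled points where the adjusted p was under 0.05. The points nearly coincide for CFZ and spread for CFZ-DOX, where Fas and Tnfrsf10b fall below 0 on ribosomal protein scaling.

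Per kilobase of exon, the order of the genes also changed with treatment. Phlda3 had the highest mean in every group, at 234 CPM per kb in CFZ, 23.5 in DOX and 20.5 in CFZ-DOX, against 148 in DMSO. In DMSO, Aen (18.5 CPM per kb) came second, then Bbc3 (6.76), Tnfrsf10b (6.17), Apaf1 (5.54), Trp53inp1 (1.83), Pmaip1 (1.66), Fas (1.65) and Gdf15 (0.0535). The libraries of Tnfrsf10b overlapped those of Apaf1, those of Trp53inp1 overlapped Pmaip1, and those of Pmaip1 overlapped Fas. In DOX, Pmaip1 (19.5 CPM per kb) overlapped both Phlda3 and Aen (16.1), and Bbc3 (3.07) lay below Tnfrsf10b (11.6) and the overlapping Fas (6.4), Trp53inp1 (6.14) and Apaf1 (5.96). The BH3-only pair thus changed places, with Pmaip1 above Bbc3 in DOX and below it in DMSO. In CFZ-DOX, Phlda3, Aen (17.8), Pmaip1 (17) and Tnfrsf10b (11.9) formed an overlapping run, above Trp53inp1 (6.22), Apaf1 (5.06), Fas (4.66) and Bbc3 (3.77), which also overlapped neighbour by neighbour. In CFZ, Aen (38.6 CPM per kb), Tnfrsf10b (29.5) and Fas (19.9) followed Phlda3, with Pmaip1 at 9.03 and Bbc3 at 8.08, whose libraries overlapped. Gdf15 was last of the tested genes in each group.

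Other p53 targets and regulators, 24 genes and all tested, are given for comparison. With CFZ 17 rose and the remaining 7 did not pass, with DOX 11 rose and 5 fell, and with CFZ-DOX 10 rose and 6 fell, at median log2 fold changes of 0.97, 0.41 and 0.25. On ribosomal protein scaling 13 rose with CFZ, 4 rose and 10 fell with DOX, and 1 rose and 19 fell with CFZ-DOX, so the rise with CFZ is the one whose direction held. In the interaction 13 of the 24 were called below 0, and 12 to 19 across the scalings. The 19 came with ribosomal protein scaling, which called 5193 of all 16648 genes tested below 0 in that term. Trp53 itself averaged 256 ± 14.7 CPM in CFZ, 143 ± 7.72 in DOX and 142 ± 17.7 in CFZ-DOX, against 162 ± 10.7 in DMSO, and rose with CFZ (log2 0.66, adjusted p = 0.00163). Mdm2, the ubiquitin ligase of p53 and its target, averaged 559 ± 46.8 CPM in CFZ, 89.4 ± 14.9 in DOX and 127 ± 32.9 in CFZ-DOX, against 116 ± 10.7 in DMSO, and rose with CFZ (log2 2.27, adjusted p = 1.77e-06) but did not pass with DOX (log2 -0.38, adjusted p = 0.0775) or CFZ-DOX (log2 0.13, adjusted p = 0.522). Cdkn1a, the cell cycle inhibitor p21, averaged 349 ± 48.3 CPM in CFZ, 148 ± 2.49 in DOX and 153 ± 38.9 in CFZ-DOX, against 131 ± 8.89 in DMSO. It also rose with CFZ (log2 1.41, adjusted p = 3.63e-05) and did not pass with DOX (log2 0.17, adjusted p = 0.388) or CFZ-DOX (log2 0.22, adjusted p = 0.256). The rises of Trp53, Mdm2 and Cdkn1a with CFZ were called under all 5 scalings, and their CFZ-DOX values took either sign across them. Gadd45a, a growth arrest gene, averaged 220 CPM in CFZ, 12.1 in DOX and 14.2 in CFZ-DOX, against 25.8 in DMSO. Mdm4, the partner of MDM2, averaged 154, 12.1 and 17.5 CPM, against 79.8 in DMSO, so it was low in the groups where Phlda3 was low.

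Some of the 10 genes, Pmaip1, Bbc3, Tnfrsf10b and Gdf15 among them, are also known to respond to the integrated stress response, in which translation of ATF4 induces the transcription factor CHOP (Ddit3). Of 12 genes of that response, 8 rose with CFZ and 4 did not pass, 2 rose and 7 fell with DOX, and 4 rose and 6 fell with CFZ-DOX, at median log2 fold changes of 1.28, -1.29 and -0.7. Ribosomal protein scaling gave counts of 6 risen with CFZ, 10 fell with DOX and 8 fell with CFZ-DOX. Atf4 averaged 665 ± 82.5 CPM in CFZ, 59.5 ± 7.41 in DOX and 84.6 ± 18 in CFZ-DOX, against 618 ± 46.5 in DMSO, and fell with DOX (log2 -3.38, adjusted p = 1.03e-08) and CFZ-DOX (log2 -2.87, adjusted p = 1.13e-08). Ddit3 averaged 136 ± 13.5 CPM in CFZ, 25 ± 4.64 in DOX and 75 ± 39.1 in CFZ-DOX, against 35.3 ± 4.23 in DMSO, and rose with CFZ (log2 1.95, adjusted p = 0.000113) and CFZ-DOX (log2 1.09, adjusted p = 0.00177, turning to -0.49 on ribosomal protein scaling). Atf3, a transcription factor of the same response, averaged 139 CPM in CFZ, 11.4 in DOX and 21 in CFZ-DOX, against 5.53 in DMSO.

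The genes whose log2 CPM ran closest to each tested gene over the 12 libraries were found by Pearson correlation among 9382 genes (9383 for Gdf15) that averaged 5 CPM or more. These are descriptions: the libraries fall into treatment groups, and all points share them. Phlda3 ran closest to Herpud1 (r = 0.998), Trib3 (0.998) and Pafah1b1 (0.997). Herpud1 acts in the degradation of misfolded proteins of the endoplasmic reticulum, and Trib3 is a target of ATF4 and CHOP. Pmaip1 ran closest to Crat (0.983), Acad8 (0.978) and Tap1 (0.975), and Trp53inp1 to Pmaip1 (0.968), Cep85l (0.967) and Crat (0.965). Fas had Tnfrsf10b (0.976) among its nearest genes, between Vps37a (0.979) and Ypel5 (0.965). Aen ran closest to Hsph1 (0.983), Psmc6 (0.98) and Hspb8 (0.98), genes of heat shock proteins and of a proteasome subunit, and Tnfrsf10b to Fam219a (0.986), Ppme1 (0.98) and Zfand2a (0.979). Bbc3 ran closest to Ints6 (0.993), Zmym1 (0.992) and Elf4 (0.991), Gdf15 to Arrdc1 (0.97), Mboat7 (0.961) and Pla2g6 (0.959), and Apaf1 to Irgq (0.961), Gcc1 (0.955) and Stau1 (0.951).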

How the data were processed

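Polyadenylated RNA was sequenced from NIH/3T3 cells in 12 libraries, 3 in each of 4 groups, as titled by the submitters. The authors deposited unnormalised read counts per Ensembl gene ID, with each gene's position and exon length. The submitters' processing notes name the build GRCm39 and the tools STAR 2.7.9a, Trimmomatic 0.39 and featureCounts from Subread 2.0.2. The annotation release, strand setting and handling of read pairs are not given in the sources used here. None of the 10 genes shares an exon base with another gene in the table. Symbols were matched to 91.4% of 56980 IDs. Ddit3 has 2 IDs, of which the one with the longer exon length, which had counts, was used.

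Genes passing edgeR's filterByExpr (minimum count 10, minimum total 15) were TMM-scaled and tested with edgeR 4.0.16 (R 4.3.3) by its robust quasi-likelihood F test, with 1 mean per group over all 12 libraries, a prior count of 0.125 and Benjamini-Hochberg adjustment over 16648 genes. Standard errors were derived from the log2 fold change and its F statistic. Alternatives were other scalings, no filter, DESeq2 1.42.0, limma-voom (limma 3.58.1), only the libraries compared, a replicate block, a stricter threshold of 0.01, and leaving out each library. The fit was tested on simulated counts. Replicate libraries differed beyond sampling noise. Same-numbered libraries deviated together, with correlations of at least 0.3 between CFZ and DMSO (highest 0.42), at least 0.21 between DOX and DMSO (highest 0.26), and at least 0.35 between CFZ-DOX and DOX (highest 0.65). Not every number passed 0.1 between CFZ-DOX and DMSO (lowest 0.06) or between CFZ-DOX and CFZ (lowest 0.02). The 10 genes and the comparison lists were chosen with earlier results of these data known. Besides the 10, the text names Trp53, Mdm2, Cdkn1a, Bax, Mcl1, Fasl, Tnfsf10, Fadd, Casp8, Casp9, Cycs, Atf4, Ddit3, called list genes with the largest fold changes (up to 3 per list and comparison, mean of at least 5 CPM), and the 3 genes most alike to each.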

Additional observations from a re-analysis of the deposited data

Results flagged for a closer look

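In 7 of the 9 tested genes the effect of carfilzomib with doxorubicin present differed from its effect with doxorubicin absent by edgeR's test of the interaction, adjusted over all genes. On the log2 scale the difference was -2.64 for Pmaip1 (adjusted p = 0.000173), -4.05 for Fas (0.000112), -2.22 for Tnfrsf10b (3.05e-05), -0.86 for Phlda3 (0.0448), -3.44 for Gdf15 (0.000639), -0.92 for Aen (0.00326) and -1.33 for Trp53inp1 (0.0118). In Fas, carfilzomib moved the log2 level by -0.46 with doxorubicin and by 3.59 without it. In Tnfrsf10b the effects were 0.04 with doxorubicin and 2.26 without it, and in Phlda3 they were -0.19 and 0.66. The Phlda3 value passed the threshold by the least margin and was past it in 2 of the 12 fits that left out 1 library. Of all genes tested, 11.2% were called below 0 in this term and 8.46% above it.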

How the results depend on the processing

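Over 1233 values of the 9 tested genes under the alternatives, 1138 kept their direction and their side of the threshold, 35 were no longer past it, 23 came past it and 37 changed sign. limma-voom kept all 54 of its values. Ribosomal protein scaling changed the most counts: genes higher in CFZ-DOX against DMSO became 2, lower in CFZ-DOX against DMSO 5, lower in DOX against DMSO 4, higher in CFZ-DOX against CFZ 0, and lower in CFZ-DOX against DOX 6. Genes higher in CFZ-DOX against CFZ numbered 0 with library size scaling and 2 with upper quartile, with only the libraries compared and with the replicate block, and 1 to 2 when a library was left out. Genes lower in CFZ-DOX against DMSO numbered 1 with upper quartile scaling. Genes lower in CFZ-DOX against DOX numbered 0 to 2 when a library was left out, and 1 without DOX replicate 3 and CFZ-DOX replicate 3, an alternative chosen after seeing the data. With the replicate block, the interaction was below 0 in 8 genes, and the block changed no call of the 9 genes other than Trp53inp1 in CFZ-DOX against CFZ and Apaf1 in the interaction.

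Signs changed as follows, mostly in values that were not called. In CFZ-DOX against DMSO, Aen was 0.05 with DESeq2-type size factors, in DESeq2 and with only the libraries compared, and 0.44 with upper quartile scaling, and Apaf1 was 0.36 with upper quartile scaling, -0.3 to 0.01 with a library left out and -0.36 without DOX replicate 3 and CFZ-DOX replicate 3. In CFZ-DOX against DOX, library size scaling gave Tnfrsf10b -0.17, Aen -0.06 and Trp53inp1 -0.2, fitting without the filter gave Tnfrsf10b -0.03 and Trp53inp1 -0.04, and leaving out a library gave Tnfrsf10b -0.14 to 0.13 and Trp53inp1 -0.19 to 0.19. Ribosomal protein scaling gave, in the same comparison, Bbc3 -0.49, Tnfrsf10b -0.74, Gdf15 -0.08, Aen -0.62 and Trp53inp1 -0.77. It also gave Apaf1 -0.73 in DOX against DMSO, Fas -0.1 and Tnfrsf10b -0.67 in CFZ-DOX against DMSO, Pmaip1 -0.6 and Trp53inp1 -1.11 in CFZ-DOX against CFZ, and Bbc3 -0.65 in the interaction. The Bbc3 interaction was -0.08 with library size scaling and -0.16 to 0.25 with a library left out. Upper quartile scaling gave Aen 0.18 in DOX against DMSO and Apaf1 0.05 in CFZ-DOX against CFZ. Apaf1 in DOX against DMSO lay between 0.04 and 0.2 with a library left out. Without DOX replicate 3 and CFZ-DOX replicate 3, Apaf1 was -0.07 in DOX against DMSO and Tnfrsf10b -0.05 in CFZ-DOX against DOX. The scalings differ in the genes they hold level on average, and which of them fits the total RNA per cell was not tested. Over all genes, the number called in CFZ-DOX against DOX was 1722 higher and 2005 lower, beside 461 and 657 with only the libraries compared and 127 and 8778 with ribosomal protein scaling, and CFZ against DMSO gave 2402 and 2395 beside 3918 and 4007 with only the libraries compared. Depth limits Gdf15, at 2 to 5 counts in the DMSO libraries, and Perp, at 0 to 3 counts in every library. With 3 libraries a group, fits that leave 1 out rest on 2.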

Other observations

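Several genes lie within 5000 bases of the tested genes, and some moved differently from their neighbour. Ikbip starts 169 bases from Apaf1 on the opposite strand and averaged 43.2 CPM in CFZ, 160 in DOX and 140 in CFZ-DOX, against 81.1 in DMSO. It fell with CFZ (log2 -0.91, adjusted p = 0.00265) and rose with DOX (log2 0.98, adjusted p = 0.000407) and CFZ-DOX (log2 0.79, adjusted p = 0.00168), while Apaf1 passed in none of these comparisons. Isg20, an exonuclease gene 2214 bases from Aen on the same strand, averaged 6.47 CPM in CFZ, 18.1 in DOX and 29.8 in CFZ-DOX, against 5.51 in DMSO. Its log2 fold changes were 0.23 with CFZ (adjusted p = 0.33), 1.72 with DOX (adjusted p = 7.69e-07) and 2.43 with CFZ-DOX (adjusted p = 2.55e-08). Rhobtb2, 578 bases from Tnfrsf10b, averaged 11.6 CPM in CFZ, 14.2 in DOX and 8.49 in CFZ-DOX, against 19.2 in DMSO, and fell with CFZ (log2 -0.73, adjusted p = 0.015) and CFZ-DOX (log2 -1.17, adjusted p = 0.000131). These neighbours were chosen by position after the values of the tested genes were known.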
